A study of Mus musculus with 24 samples.

Results

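Oxidative phosphorylation is the work of 5 protein complexes in the inner mitochondrial membrane, and its genes were followed here in cells sorted from mouse lung. The members were all genes in both expression tables whose GENCODE M21 symbol began with Nduf, Uqcr, Cox4, Cox5, Cox6, Cox7, Cox8, Atp5, mt-Nd, mt-Co, mt-Cytb or mt-Atp, or was Sdha, Sdhb, Sdhc or Sdhd, with symbols marked -ps left out. This gave 110 of 48795 gene identifiers, 97 on nuclear chromosomes and 13 on the mitochondrial chromosome. By complex, set from the symbol prefix, they were 48 genes of complex I, 8 complex I assembly factors, 4 of complex II, 9 of complex III, 22 of complex IV and 19 of complex V. The prefix need not match the place of the protein, and Ndufa4 and Ndufa4l2 were counted in complex I by name. A value of at least 10 in at least 4 of 12 libraries was met by 103 members in each table, and by 101 in both. Ndufa11b, Ndufs6b, Cox6c2, Cox7b2 and Cox8c missed it in both tables, Ndufa4l2 and Cox8b in the epithelial table, and Cox6a2 and mt-Co2 in the mesenchymal table. The annotation gives Ndufa11b, Ndufb4c and Ndufs6b, counted in complex I, and Cox6c2, counted in complex IV, as processed pseudogenes. Ndufb4c was tested in both tables, but all of its 50-base words also occur in Ndufb4, so its reads cannot be told from those of Ndufb4.

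The cells came from female Balb/c mice of 8 weeks. Sham mice had a sham irradiation and an IgG control antibody. Irradiated mice had 13 Gy aimed at the lungs and the same IgG. Depleted mice had the irradiation and daily injections of anti-Ly6G, an antibody that depletes neutrophils, and no group had the antibody without irradiation. Lungs were taken on day 7, and cells lacking CD45, CD31 and Ter119 were sorted as EpCAM+ (epithelium) or EpCAM- (mesenchyme), with 4 libraries in each of 6 groups. The design names 4 mice per group. The written gate repeats CD45 where the cell type entries name CD31.

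Complex I (NADH dehydrogenase) and complex II (succinate dehydrogenase) pass electrons to ubiquinone, complex III passes them on to cytochrome c, and complex IV (cytochrome c oxidase) passes them to oxygen. Complexes I, III and IV pump protons, and complex V (ATP synthase) makes ATP from the gradient. All complexes but II are mosaics: their hydrophobic cores are encoded in the mitochondrial genome and transcribed there as long polycistronic RNAs, while the other subunits are nuclear genes. Surfactant-producing alveolar type 2 cells are the mitochondria-rich cells of the alveolar epithelium.

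Values are the authors' normalised counts (reads divided by 1 scaling factor per library), given for replicates 1 to 4 in that order. Each compartment has its own table and scale, so levels were compared within a compartment only. Recovered reads per library were 8159062 to 13373329 in the epithelium and 7366672 to 11408083 in the mesenchyme. The summed alveolar type 2 markers stood at 757791 to 862054 in every epithelial library and at 3428 to 10815 in the mesenchymal ones, and summed mesenchymal markers at 12648 to 18634 and 161201 to 259819. In such bulk samples, fewer cells of a type and less RNA per cell cannot be told apart. A gene was called changed at an adjusted p under 0.05 (limma, Benjamini-Hochberg over all tested genes of a table). Each group mean and SD rests on n = 4 libraries, and log2 changes are on the log2(value + 1) scale. Each fit within a compartment took all 12 libraries of its table, with 1 shared estimate of the spread per gene. The group outside a comparison thus also shapes its p-value. The p-values rest on the spread between libraries within groups. Where calls are counted with another method or setting, or with a library left out, the share of all genes called is not given. Such counts are not a result about the members alone.

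Before any mitochondrial gene can be compared, its reads have to be told from those of nuclear copies of the mitochondrial genome. On chromosome 1, GENCODE M21 lists a run of such copies, each with a gene identifier of its own in the tables. Along the whole aligned length, no base differed from the mitochondrial gene for mt-Co2 and Gm28661 (681 bases), mt-Co3 and Gm28437 (783 bases), mt-Atp6 and Gm10925 (678 bases), mt-Nd4 and Gm28439 (876 bases) or mt-Nd4l and Gm10222 (294 bases). For mt-Nd3 and Gm28438 the 1 difference in 345 bases was T3C, counted from the first base of the mitochondrial gene and written with its base first. mt-Co1 and Gm29216 differed at 6 of 492 bases, an identity of 98.8%. mt-Nd1, mt-Nd6, mt-Cytb and mt-Atp8 shared no stretch of 50 bases with any other transcript. The stretches below, from the GENCODE M21 transcripts on GRCm38, are the middle of the 3 genes whose reads were most often listed under a copy. They are written 5′ to 3′ on the coding strand in lower case, because not a base differs between gene and copy. The first lies at chrM:7293-7412 (+) and chr1:24615166-24615285 (-), the second at chrM:8938-9057 (+) and chr1:24613521-24613640 (-), the third at chrM:8206-8325 (+) and chr1:24614253-24614372 (-).
mt-Co2 and Gm28661: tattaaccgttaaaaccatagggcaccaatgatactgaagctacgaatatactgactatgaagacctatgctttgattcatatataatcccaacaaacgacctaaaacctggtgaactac
mt-Co3 and Gm28437: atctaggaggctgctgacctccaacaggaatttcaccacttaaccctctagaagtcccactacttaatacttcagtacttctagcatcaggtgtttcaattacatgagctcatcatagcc
mt-Atp6 and Gm10925: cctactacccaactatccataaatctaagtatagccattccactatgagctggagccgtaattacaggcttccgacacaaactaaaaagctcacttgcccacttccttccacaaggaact

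For contrast, the 6 differences between mt-Co1 and its copy all fall at the start of the copy. The 60 bases at chrM:6381-6440 (+) and at chr1:24616138-24616197 (-) are shown, with capitals at the bases that differ.
mt-Co1: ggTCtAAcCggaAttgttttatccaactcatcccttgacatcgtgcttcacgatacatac
Gm29216: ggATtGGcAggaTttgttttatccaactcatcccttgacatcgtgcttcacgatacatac

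Reads of mt-Co2 and mt-Co3 were found mostly under the names of the copies. mt-Co2, a catalytic subunit of complex IV, was listed at 0 to 462 in the epithelium and at 0 in 4 of 12 libraries, while gene and copies together came to 18560.3 to 26659. In the mesenchyme it was listed at 0 in 9 of 12 libraries and at no more than 323, against a sum of 7461 to 11371. mt-Co3, another core subunit of complex IV, was listed at 0 to 3114 with a sum of 15824 to 25793 in the epithelium, and at 0 to 1402 with a sum of 5982 to 11351 in the mesenchyme. A value of 0 for these genes thus stands beside reads of the same sequence under another name.

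mt-Atp6, the proton-channel subunit of complex V, was divided between the names differently from group to group. In the epithelium its own entry read 7006, 6595, 5209 and 7487 in the sham libraries, 6280.2, 9337, 6442 and 5306 in the irradiated libraries and 14350.4, 18849, 13348 and 8124 in the depleted libraries. All 4 depleted libraries lay above all sham libraries, and 3 of 4 lay above all irradiated ones. Its copy Gm10925 moved the other way, from 17348 ± 7688 (SD, n = 4) in sham and 14564 ± 6654 in irradiated to 4827 ± 3836 in depleted libraries. The sum of both was 23922 ± 7524 in sham, 21405 ± 6647 in irradiated and 18495 ± 1584 in depleted libraries. As listed, mt-Atp6 was higher in depleted than in sham libraries (log2 change 1.01 ± 0.26 SE, adjusted p = 0.0391), and with the copy added the sign turned (log2 change -0.32 ± 0.26 SE, adjusted p = 0.509). Against irradiated libraries the change was 0.97 (adjusted p = 0.167) as listed and -0.17 (adjusted p = 0.859) summed. For this reason each mitochondrial gene is given below with its copies added, unless stated as listed, where a copy held at least 20% of its 50-base words. The fits and the mean log2 levels added only the copies on chromosome 1. They left out 2 copies on chromosome 2, Gm13340 of mt-Co1 and Gm13341 of mt-Co2. These read at most 7.18 and 11.45 in the epithelium and 6.76 and 4.14 in the mesenchyme.

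**Figure D1:**
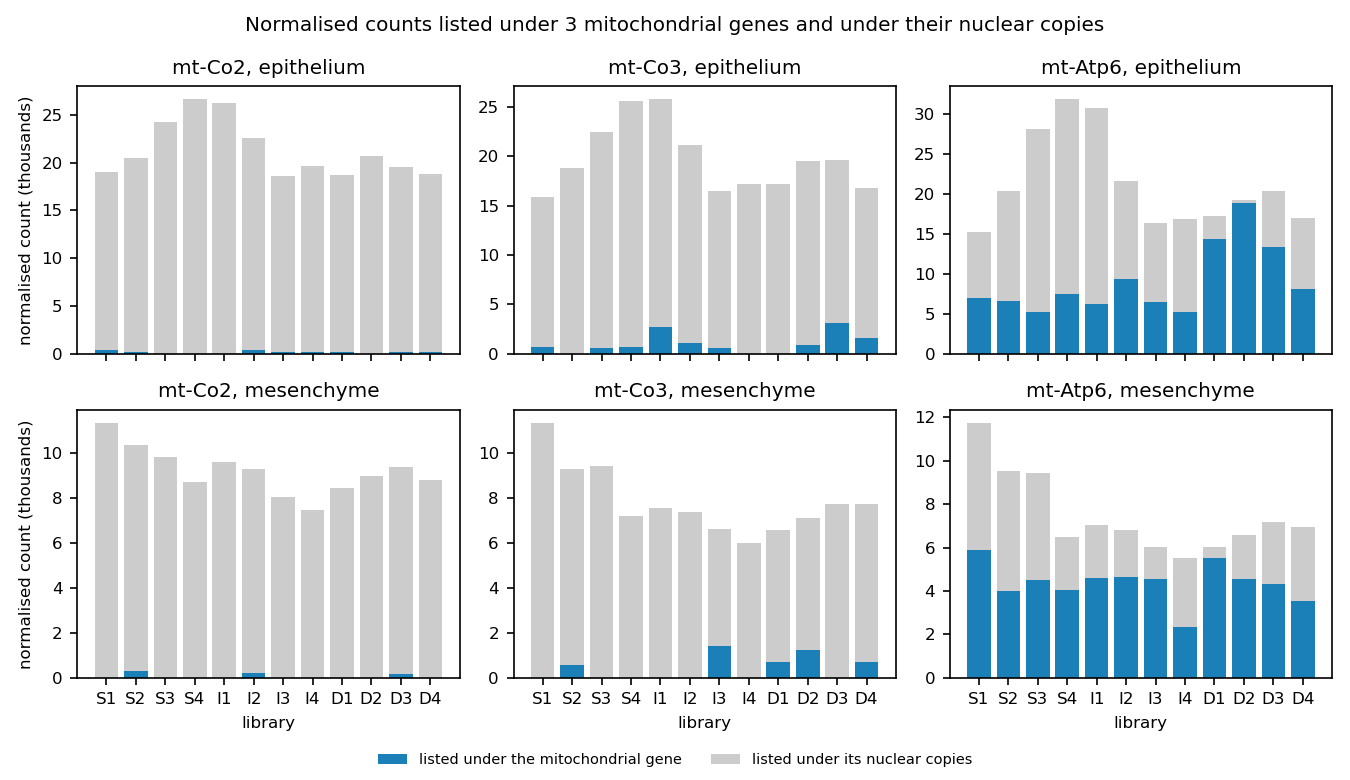
Normalised counts, divided by 1000, listed under mt-Co2, mt-Co3 and mt-Atp6 (blue) and under their nuclear copies (grey), as stacked bars for each library, S for sham, I for irradiated and D for depleted with the replicate number. mt-Co2 stands almost wholly and mt-Co3 mostly under the copies, and 3 of the 4 epithelial depleted libraries have the tallest blue bars for mt-Atp6, with 18849 in replicate 2.

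Transcripts of mitochondrial genes were far more abundant than those of nuclear members in both compartments. Per kilobase of transcript, the median mitochondrial gene stood at 17004 normalised counts in sham epithelium and the median nuclear member at 288. In sham mesenchyme these medians were 6408 and 204. mt-Co1, the catalytic core of complex IV, had the highest mean per kilobase in all 6 groups (52156 ± 5538 in sham epithelium, SD, n = 4). Next per kilobase in that group came mt-Atp6 at 35127 ± 11049 and mt-Co2 at 33003 ± 5134, which overlap within their spread. Among nuclear members, Atp5b, the catalytic beta subunit of ATP synthase, was first in every group (1414 ± 49.5 per kilobase in sham epithelium and 949 to 1067 in sham mesenchyme). Atp5a1, the alpha subunit, and Cox4i1, the common form of cytochrome c oxidase subunit IV, followed it in sham epithelium at 1260.5 ± 60.1 and 1201 ± 113 per kilobase. The 13 mitochondrial genes as listed took 1.55% to 2.25% of reads in the epithelium and 0.577% to 0.934% in the mesenchyme. The nuclear members took 0.297% to 0.330% and 0.227% to 0.269%.

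The mitochondrial genes varied more between libraries of a group than the nuclear members did, and they moved together. In sham epithelium the mean log2 level of the mitochondrial genes was 13.01, 13.32, 13.73 and 13.91, and that of the nuclear members 7.90, 7.84, 7.83 and 7.79. Sham replicate 4 was the highest of its group for 13 of 13 mitochondrial genes and sham replicate 1 the lowest for 13. Among irradiated epithelial libraries, replicate 1 was the highest for 13 and replicate 3 the lowest for 11. In the mesenchyme, sham replicate 1 was the highest for 10 and replicate 4 the lowest for 11 of 13, and irradiated replicate 4 was the lowest of its group for 12. The depleted libraries were the closest together in both compartments, at 12.90, 13.07, 13.09 and 13.03 in the epithelium and 11.49, 11.59, 11.62 and 11.60 in the mesenchyme. With copies summed, the widest range was that of mt-Atp8, a small accessory subunit of complex V whose gene overlaps mt-Atp6. In the epithelium it read 431, 978, 2044 and 2548 in the sham libraries, 2272, 1137, 653 and 609 in the irradiated libraries and 226, 337, 345 and 535 in the depleted libraries.

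The distance between the genomes was taken in each library as the mean log2 level of nuclear members minus that of mitochondrial genes. In the epithelium it was -5.65 ± 0.45 (SD, n = 4) in sham, -5.45 ± 0.36 in irradiated and -5.19 ± 0.11 in depleted libraries. The single values were -5.12, -5.48, -5.90 and -6.12 in sham, -5.94, -5.47, -5.11 and -5.27 in irradiated and -5.05, -5.21, -5.32 and -5.16 in depleted libraries, so all 3 groups overlapped. In the mesenchyme it was -4.59 ± 0.33 in sham (-4.88, -4.80, -4.55 and -4.14), -4.27 ± 0.12 in irradiated (-4.33, -4.42, -4.17 and -4.17) and -4.12 ± 0.071 in depleted libraries (-4.02, -4.16, -4.15 and -4.16). Sham replicate 4 lay inside the range of the depleted libraries, and the other 3 sham libraries lay below all irradiated and depleted ones. With the mitochondrial genes as listed, the group means were -4.13 ± 0.24, -4.14 ± 0.46 and -4.04 ± 0.48 in the epithelium and -3.54 ± 0.54, -3.26 ± 0.39 and -3.48 ± 0.41 in the mesenchyme, in the same order. The step from irradiated to depleted mesenchyme thus had opposite signs in the 2 ways of counting. No test was made on a mean over chosen members.

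**Figure D2:**
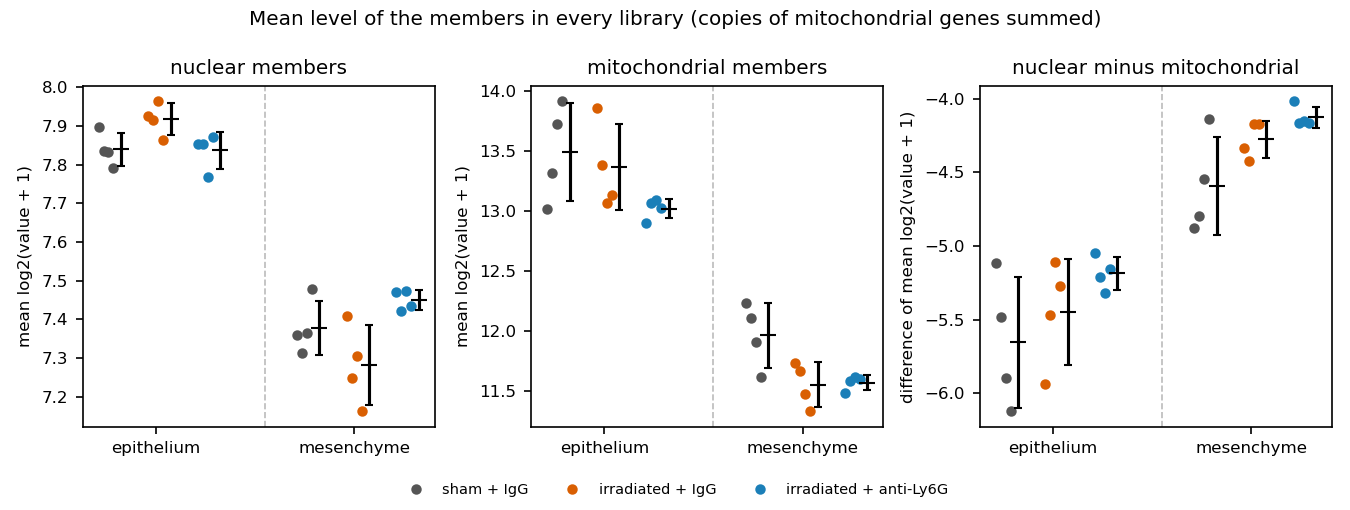
Mean log2(value + 1) over the nuclear members, over the 13 mitochondrial genes with copies summed, and the difference of the means, for every library (points) with group mean and SD (bars), left of the dashed line the epithelium and right of it the mesenchyme, whose tables have separate scales. The points of the mitochondrial panel spread over 13.01 to 13.91 in sham epithelium, those of the nuclear panel over 7.79 to 7.90.

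The first question was what lung irradiation did to these genes in the epithelium. Cox6b2 and Cox7a2l, both tied to complex IV, rose, and no member fell. Most nuclear members lay slightly above sham. Of 103 tested members, 2 rose and 0 fell, beside 3.14% of all tested genes called (2.26% higher and 0.878% lower), and edgeR and DESeq2 on the recovered reads gave the same counts. The members' share was not above that of all genes. At an unadjusted p under 0.05, 13 members were higher and 1 lower, where 8.4% and 5.95% of all genes were. All irradiated libraries lay above all sham libraries for 11 members and below for 1, against 4.94% and 3.89% of all genes. 65 of 90 nuclear members had a change above 0 (median 0.064), against 5 of 13 mitochondrial genes as listed (median -0.041) and 48.1% of all genes (median -0.0071). Short transcripts lay higher as a class: the median change of all genes was 0.11 under 500 bases and 0.030 from 500 to 1000, lengths that 14 and 43 nuclear members have. With the trend on length and GC content removed, the nuclear median was 0.047.

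Cox6b2 encodes a form of cytochrome c oxidase subunit VIb best known from testis, while its partner Cox6b1 is the form of most tissues. The gene is at chr7:4751792-4753094 (-) on GRCm38. Its epithelial values were 36.1, 59.4, 35.7 and 38.5 in the sham libraries, 80.3, 125, 81.7 and 107 in the irradiated libraries and 83.0, 99.1, 80.1 and 139 in the depleted libraries. Every irradiated and depleted library lay above every sham library. The change was 2.30-fold for irradiated against sham (log2 change 1.20 ± 0.20 SE, adjusted p = 0.00281), while Cox6b1 changed by 0.043 (adjusted p = 0.863). As share of the pair per kilobase, Cox6b2 went from 8.07% ± 2.08 (SD, n = 4) in sham to 16.5% ± 3.55 in irradiated and 18.1% ± 4.63 in depleted epithelium. In the mesenchyme, where it was read at low counts, the values were 8.11, 11.6, 13.1 and 20.0 in the sham libraries, 26.8, 19.3, 17.3 and 20.7 in the irradiated libraries and 24.6, 18.9, 30.0 and 26.2 in the depleted libraries, with 0.68 (adjusted p = 0.163) for irradiated against sham.

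Cox7a2l encodes a factor that joins complexes III and IV into supercomplexes. It read 823, 781, 764 and 802 in the sham libraries and 863, 907, 978 and 995 in the irradiated libraries. All irradiated libraries exceeded all sham libraries, by a small step (1.18-fold, log2 change 0.24 ± 0.062 SE, adjusted p = 0.0456). The next members by p were complex I accessory subunits that missed the threshold, namely Ndufa7 at 0.28 (adjusted p = 0.0888), Ndufb11 at 0.23 (adjusted p = 0.0939) and Ndufa6 at 0.27 (adjusted p = 0.109). Ndufa7 read 339.5, 333, 290.3 and 269 in the sham libraries and 339.6, 396, 395 and 361 in the irradiated libraries, with irradiated replicate 1 only just above the highest sham library. Cox8a, a complex IV subunit, was at 0.24 (adjusted p = 0.156) and Ndufc2, of the membrane arm of complex I, at -0.20 (adjusted p = 0.194). The 4 genes of complex II, which has no mitochondrial gene, were not called in any comparison, and here lay between -0.040 (Sdhd) and 0.12 (Sdhb).

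Markers of other cells differed between these libraries too. Summed leukocyte markers were 3539 to 3877 in sham libraries, 3719 to 4859.8 after irradiation and 3288 to 4104 with depletion, mostly from Lcp1, and 5 of 15 rose with irradiation. Summed endothelial markers were 1661 to 2238 in sham libraries, 2441 to 3969 after irradiation and 2357 to 3286 with depletion, and 5 of 12 rose. Summed mesothelial markers were 337 to 434 in sham libraries, 429.7 to 1104 after irradiation and 712 to 1837 with depletion, and 0 of 6 rose with irradiation and 5 of 6 in depleted against sham libraries. Summed epithelial markers were 27556 to 29481 in sham libraries, 24253 to 26559 after irradiation and 22890.3 to 25253 with depletion, where 1 of 10 rose and 4 fell in depleted against sham libraries. The part of these cells in the members' changes was not tested. The leukocyte covariate, each library's mean log2 level of the leukocyte markers, cannot separate leukocytes from irradiation, because 5 of the 15 markers themselves rose. With this covariate no member was called in this comparison, and the adjusted p of Cox6b2 became 0.964, whereas its call held in the other 26 alternatives. The Cox7a2l call was lost in 13 of 27 alternatives, among them leaving out any of sham replicates 2 to 4, irradiated replicates 2 to 4 or depleted replicates 2 and 3. Of its 50-base words 13.8% also occur elsewhere, mainly in Gm6969.

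Neutrophil depletion on top of irradiation was compared with irradiation alone. In the epithelium Atp5k fell, mt-Nd4l as listed fell, and no member rose. Most nuclear members lay slightly below 0. The 2 calls among 103 members stand beside 0.475% of all tested genes called (0.204% higher and 0.271% lower). edgeR also called 0 higher and 2 lower, and DESeq2 1 higher and 3 lower. At an unadjusted p under 0.05, 3 members were higher and 14 lower, against 6.42% and 6% of all genes. Groups did not overlap for 2 members higher and 12 lower, where 3.24% and 3.18% of all genes did so. 65 of 90 nuclear members lay below 0 (median -0.049), and so did 10 of 13 mitochondrial genes as listed (median -0.19), while 50.2% of all genes lay above 0 (median 0.00064).

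Atp5k encodes subunit e of ATP synthase, which helps hold the enzyme's dimers together in the membrane. The gene is at chr5:108433244-108434448 (-). Its values were 135, 146, 147 and 133 in the sham libraries, 130.2, 139, 159 and 135 in the irradiated libraries and 97.6, 103, 76.7 and 101 in the depleted libraries. All 4 depleted libraries lay below the 8 others, which overlapped each other fully. Against irradiated libraries it fell (log2 change -0.58 ± 0.11 SE, adjusted p = 0.0259), and against sham libraries too (log2 change -0.57 ± 0.11 SE, adjusted p = 0.00309), comparisons that share the depleted libraries. Atp5j2, subunit f of the same membrane part, was at -0.40 (adjusted p = 0.0655), with values of 175, 169, 161 and 211 in depleted against 227, 241, 259 and 219 in irradiated libraries. The neighbouring subunit g, Atp5l, was at 0.089 (adjusted p = 0.667), and subunit d, Atp5h, at -0.23 (adjusted p = 0.132). Of the 17 tested nuclear genes of complex V, 9 lay below 0.

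mt-Nd4l, a core membrane subunit of complex I, read 2133, 2045, 2083 and 1940.0 in the sham libraries, 2218, 2576, 2108 and 2336 in the irradiated libraries and 1375, 1623, 1615 and 1876 in the depleted libraries as listed, with every depleted library under every other (log2 change -0.51 ± 0.080 SE, adjusted p = 0.00616). With the copy Gm10222 added, the depleted libraries were still the lowest, but the irradiated ones spread from 2108 to 3785 and the call was gone (log2 change -0.71 ± 0.23 SE, adjusted p = 0.225). With copies summed, 12 of 13 mitochondrial genes were below 0 in this comparison, from -1.55 (mt-Atp8) to 0.024 (mt-Nd3), and none was called. mt-Cytb, the core of complex III, was lower in all 4 depleted libraries than in all irradiated ones (24194, 26210.3, 26015 and 23986 against 37228, 29304, 26316 and 27283), at -0.25 (adjusted p = 0.411).

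In complex I the nuclear genes lay mostly below 0, with 32 of 38 genes below 0 (median -0.077), the lowest by p being Ndufs6, a zinc-binding subunit, at -0.36 (adjusted p = 0.13). Uqcrfs1, the Rieske iron-sulfur protein of complex III, went the other way at 0.20 (adjusted p = 0.234). Short transcripts moved down as a class here: the median of all genes under 500 bases was -0.14, and 14 nuclear members are of that length. With the trend on length and GC content removed, no member was called. Summed mesenchymal markers, highest in the depleted epithelium, were 12648 to 13187 in sham libraries, 14311 to 16732 after irradiation and 16875 to 18634 with depletion, and summed neutrophil markers, mostly Ltf, 323 to 2206 in sham libraries, 339.8 to 1277 after irradiation and 1028 to 2511 with depletion. The Atp5k call was also lost on leaving out irradiated replicate 2, 3 or 4 or depleted replicate 1 (highest adjusted p over all alternatives 0.0957).

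Against sham, 5 members rose and 6 fell in depleted epithelium, where 11.3% of all tested genes were called (6.52% higher and 4.76% lower). At an unadjusted p under 0.05, 9 members were higher and 11 lower, beside 13% and 11.7% of all genes. 49 of 103 members lay above 0, beside 48.7% of all genes, and the groups did not overlap for 7 higher and 6 lower members, beside 8.76% and 7.89%. Besides Cox6b2 (log2 change 1.22), the nuclear genes that rose were Ndufa7 at 0.37 (adjusted p = 0.00865), Ndufa6 at 0.31 (adjusted p = 0.0284) and Uqcrfs1 at 0.26 (adjusted p = 0.0239). Those that fell, besides Atp5k, were Ndufs6 at -0.43 (adjusted p = 0.0103), Atp5j2 at -0.38 (adjusted p = 0.0163), Ndufc2 at -0.37 (adjusted p = 0.00384) and Ndufs5 at -0.31 (adjusted p = 0.0308). The calls in complex I went in both directions, with Ndufa6 and Ndufa7 up and Ndufc2, Ndufs5 and Ndufs6 down. The share called among all 103 members was not above that of all genes. Ndufs6 read 108, 112, 126 and 130.4 in depleted and 164, 145, 159 and 174 in sham libraries, with no overlap. 21.7% of the 50-base words of Ndufs5 also occur in other transcripts, mainly BC002163, so its reads are uncertain. mt-Atp6 was called higher as listed but not with its copy, and mt-Nd4l was called lower in both ways (-0.88, adjusted p = 0.0381 with its copy). With the leukocyte covariate, no member passed the threshold, and the share of all genes called with it is not given here.

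In the mesenchyme mt-Nd3 and Atp5j fell with irradiation, and no other member passed the threshold. All 12 tested mitochondrial genes had a change below 0, as had most genes of complex V and every complex I assembly factor. Of 103 tested members, 0 rose and 2 fell, beside 3.8% of all tested genes called (2.64% higher and 1.15% lower). The members' share was not above that of all genes. edgeR called 0 higher and 2 lower, DESeq2 0 higher and 7 lower, and their shares of all genes called are not given here. At an unadjusted p under 0.05, 1 was higher and 18 were lower (7 of them mitochondrial), against 11.5% and 9.52% of all genes. The groups did not overlap for 0 members higher and 6 lower, where 6.26% and 5.55% of all genes did so. The median change was -0.34 for mitochondrial genes as listed, -0.090 for nuclear members (65 of 91 below 0) and -0.0075 for all genes, 48.5% of which lay above 0. With the trend on length and GC content removed, the mitochondrial median was -0.13.

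mt-Nd3, a core subunit of complex I, read 1131, 764, 913 and 604 in the sham libraries, 601, 544, 494 and 392 in the irradiated libraries and 539, 631, 652 and 548 in the depleted libraries as listed. Sham replicate 4 lay close to irradiated replicate 1, and the groups did not overlap (log2 change -0.73 ± 0.18 SE, adjusted p = 0.0446, or -0.75, adjusted p = 0.0374 with its copy). With copies summed all 13 mitochondrial genes were below 0, and mt-Co2, untested as listed, was at -0.23 (adjusted p = 0.195). The largest fall was that of mt-Atp8, which read 315, 471, 220.1 and 144 in sham and 186, 138, 133 and 112 in irradiated libraries and overlapped (-0.90, adjusted p = 0.109). mt-Nd2 read 3776, 3191, 2848 and 2092 in sham and 2435, 2009.9, 1862 and 1626 in irradiated libraries (-0.57, adjusted p = 0.0597). Its sham replicate 4 sat within the irradiated range. mt-Nd1 was at -0.40 (adjusted p = 0.0605), mt-Cytb at -0.32 (adjusted p = 0.103), mt-Co1 at -0.17 (adjusted p = 0.369) and mt-Nd6, the gene on the other strand, at -0.12 (adjusted p = 0.634).

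Atp5j encodes coupling factor 6, a stalk subunit of ATP synthase. It read 377, 314, 365 and 339 in the sham libraries, 289, 298, 273 and 274 in the irradiated libraries and 305, 338, 322 and 352 in the depleted libraries, with all irradiated libraries below all sham and all depleted ones, which overlapped each other (log2 change -0.30 ± 0.078 SE, adjusted p = 0.0466 for irradiated against sham). The gene overlaps Gabpa on the other strand, and the strand setting of the counting is not given in the sources used here. Of the 17 nuclear genes of complex V, 16 lay below 0 (median -0.11), as did 8 of 8 complex I assembly factors (median -0.24). Ndufv1, which binds NADH, and its iron-sulfur partner Ndufv2 were at -0.22 (adjusted p = 0.0793) and -0.27 (adjusted p = 0.0849), each without overlap of the groups. Ndufv1 read 416, 384, 407 and 383 in the sham libraries and 341, 321, 331 and 371 in the irradiated libraries. The assembly factor Ndufaf4 was at -0.38 (adjusted p = 0.144). Complex II lay at a median of 0.013 and complex IV at -0.029.

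Other cell markers differed in these libraries too. Summed leukocyte markers were 526 to 1429.9 in sham libraries, 1472 to 3178 after irradiation and 1104 to 2403 with depletion, summed endothelial markers 1442 to 3248 in sham libraries, 3134 to 5236 after irradiation and 2360.0 to 4227 with depletion and summed epithelial markers 202 to 421 in sham libraries, 392 to 731 after irradiation and 469.7 to 699 with depletion. Of these lists 3 of 15 leukocyte and 0 of 12 endothelial genes rose. With the leukocyte covariate, whose markers themselves differed between the groups, 1 member was called, and neither mt-Nd3 nor Atp5j. The mt-Nd3 call was lost in 15 of 27 alternatives and that of Atp5j in 17, among them scaling to total reads and leaving out sham replicate 1 or 3 or irradiated replicate 2, 3 or 4. Leaving out sham replicate 4 gave 5 calls, all lower, in place of 2, and the share of all genes called without it is not given here.

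In the mesenchyme 2 members, Atp5l among them, rose with neutrophil depletion in irradiated mice, and no member fell. Most nuclear genes of complexes I, III, IV and V lay above 0, whereas the mitochondrial genes, with copies summed, lay between -0.16 and 0.23. The 2 calls among 103 members stand beside 2.69% of all tested genes called (2.02% higher and 0.674% lower). The members' share was again not above that of all genes. edgeR called 2 higher and 0 lower, DESeq2 4 higher and 0 lower. At an unadjusted p under 0.05, 26 members were higher and 0 lower, and all 26 were nuclear, where 10.1% and 7.89% of all genes were. Every depleted library lay above every irradiated one for 16 members and below for 0, against 6.09% and 3.93% of all genes. 78 of 91 nuclear members lay above 0 (median 0.17). The median was 0.021 for mitochondrial genes as listed and -0.0045 for all genes, 49.1% of which lay above 0.

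Atp5l, subunit g of ATP synthase, read 276, 261, 279 and 279 in the sham libraries, 266, 245, 219 and 191 in the irradiated libraries and 312, 301, 304 and 371 in the depleted libraries. The depleted libraries lay above all irradiated and all sham libraries (1.40-fold, log2 change 0.49 ± 0.10 SE, adjusted p = 0.0167 against irradiated). Ndufs7, which carries the last iron-sulfur cluster before ubiquinone, just missed the threshold at 0.33 (adjusted p = 0.05003). It read 174, 167, 191 and 179 in the sham libraries, 146, 142, 158 and 155 in the irradiated libraries and 189, 199, 188 and 178 in the depleted libraries. Atp5b was at 0.25 (adjusted p = 0.0685) and read 2028, 1753, 1882 and 1729 in the irradiated libraries and 2226, 2229, 2079.7 and 2216 in the depleted libraries, with no overlap. Cox6c and Cox6a1, subunits of complex IV, were at 0.27 (adjusted p = 0.0695) and 0.30 (adjusted p = 0.0863).

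By complex, the nuclear genes stood at 36 of 39 above 0, median 0.17 for complex I, 3 of 4 above 0, median 0.13 for complex II, 7 of 8 above 0, median 0.12 for complex III, 11 of 15 above 0, median 0.25 for complex IV and 15 of 17 above 0, median 0.21 for complex V. In complex IV, 8 of 15 had an unadjusted p under 0.05 and none passed the adjusted threshold. The mean log2 level of all nuclear members in each library was 7.41, 7.25, 7.31 and 7.16 in irradiated and 7.47, 7.42, 7.47 and 7.44 in depleted mesenchyme, so every depleted library exceeded every irradiated one. Irradiated replicate 1 came nearest. The sham libraries, at 7.36, 7.31, 7.36 and 7.48, overlapped both groups.

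Other lists gave the following counts in this comparison, where 2.02% of all tested genes were called higher. Of 83 cytosolic ribosomal protein genes, 6 rose and 36 were higher without overlap of the groups, with a median of 0.19. Of 78 mitochondrial ribosomal protein genes none rose, with a median of 0.11 and 12 at an unadjusted p under 0.05. In the tricarboxylic acid cycle 1 of 25 genes rose (Idh1, 0.53), in glycolysis 2 of 21 (Ldha, 0.53, and Pfkl, 0.48). Of 9 mitochondrial antioxidant and uncoupling genes, 3 rose: the superoxide dismutase Sod2 by 1.10, and the peroxiredoxins Prdx3 by 0.58 and Prdx5 by 0.54. The mitochondrial ribosomal RNAs were not called (2 tested). Of 44 assembly factors and subunits named outside the rule, 0 rose, with a median of 0.048.

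Among the 12 neutrophil markers, the receptors Csf3r and Cxcr2 fell in the same comparison (-2.37 and -1.61). The sum over all 12 was 119 to 324 in sham libraries, 402 to 834 after irradiation and 343 to 827 with depletion. Irradiated and depleted libraries thus overlapped in the sum, with means of 580 ± 204 and 525 ± 219 (SD, n = 4). The other markers of the list are not given singly here. The Atp5l call was lost on leaving out irradiated replicate 3 or depleted replicate 4 (highest adjusted p 0.0601).

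Between depleted and sham mesenchyme, nuclear calls were mostly higher and mitochondrial calls all lower. Of 91 nuclear members 7 rose and 1 fell, and of 12 mitochondrial genes as listed 0 rose and 4 fell, where 15.2% of all tested genes were called (8.51% higher and 6.7% lower). The share called among all 103 members was not above that of all genes, and neither was the share of nuclear members that rose. Over all members, at an unadjusted p under 0.05, 15 members were higher and 10 lower, beside 15.3% and 14% of all genes. 60 of 103 members lay above 0, beside 49.2% of all genes, and the groups did not overlap for 9 higher and 4 lower members, beside 10.3% and 9.07%. Among the nuclear genes that rose were Ndufa12 at 0.52 (adjusted p = 0.0213), Cox6b2 at 0.91 (adjusted p = 0.0325), Ndufb9 at 0.32 (adjusted p = 0.0498), Ndufb11 at 0.30 (adjusted p = 0.0339), Cox7b at 0.30 (adjusted p = 0.0475) and Cox6a1 at 0.29 (adjusted p = 0.0378). The nuclear gene that fell was the assembly factor Ndufaf4 at -0.46 (adjusted p = 0.0447). With copies summed, the mitochondrial genes that fell were mt-Nd1 at -0.35 (adjusted p = 0.0484), mt-Nd2 at -0.57 (adjusted p = 0.0264), mt-Nd4l at -0.46 (adjusted p = 0.0135), mt-Atp6 at -0.45 (adjusted p = 0.0496) and mt-Atp8 at -0.97 (adjusted p = 0.0464). mt-Nd2 read 1894, 2034, 1958 and 1967 in depleted and 3776, 3191, 2848 and 2092 in sham libraries, with sham replicate 4 just above the highest depleted one. With the trend on length and GC content removed, the median of the mitochondrial genes was -0.083, against -0.31 as fitted. With 1 library left out, the count of member calls ran from 2 without sham replicate 3 to 20 without sham replicate 4. The share of all genes called in these fits is not given here, so the range is not a result about the members alone.

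**Figure D3:**
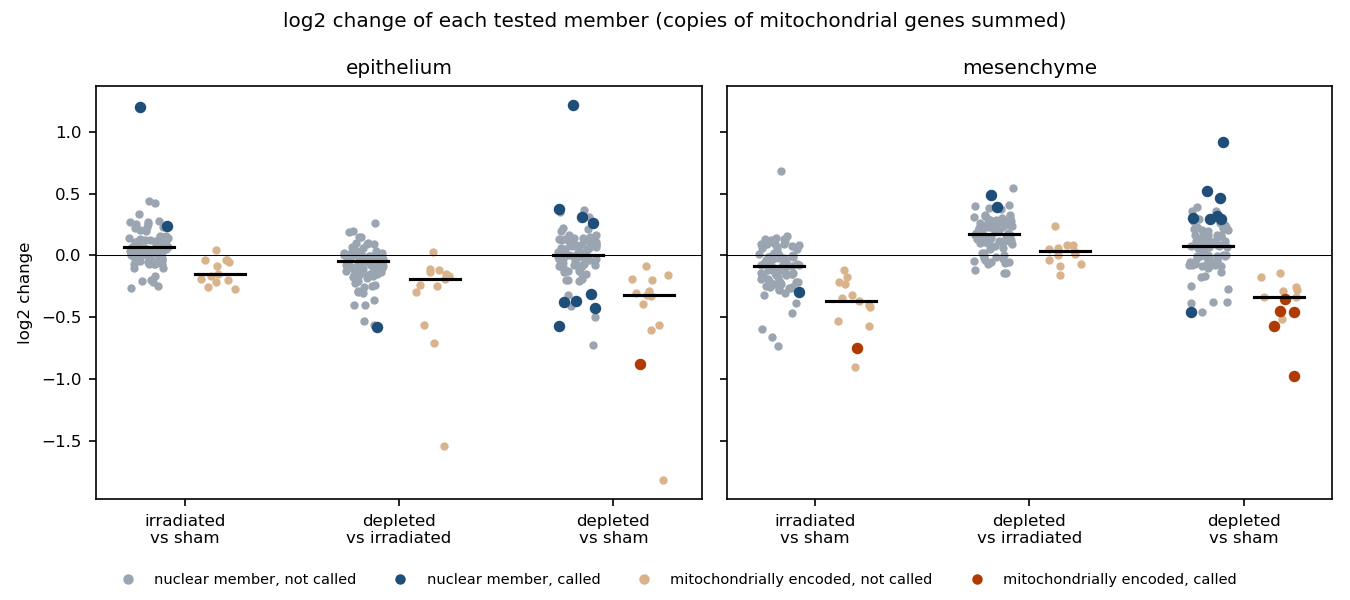
log2 change of every tested nuclear member (grey, dark blue where called) and every mitochondrial gene with copies summed (tan, red where called) in the 3 comparisons of each compartment, with the median of each set as a black bar. Nuclear members sit above 0 for depleted against irradiated mesenchyme (median 0.17), and all 13 mitochondrial genes below 0 in both mesenchymal comparisons with sham.

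Whether the compartments responded differently was tested on the 101 members measured in both, as the epithelial change minus the mesenchymal change. The fit used all 24 libraries and took them as independent. For depletion in irradiated mice, Ndufa12 and Ndufs7 differed, with changes below 0 in the epithelium and above 0 in the mesenchyme that missed the threshold within each compartment, beside 0.596% of 15092 genes called. Ndufa12, an accessory subunit of the peripheral arm of complex I at chr10:94198720-94221443 (+), changed by -0.40 in the epithelium and 0.54 in the mesenchyme (difference -0.94 ± 0.20, SE, adjusted p = 0.0276). Of its 50-base words 17.7% also occur elsewhere, mainly in Gm15920. Its epithelial values were 196, 171, 152 and 186 in irradiated and 107, 153, 121 and 158 in depleted libraries, which overlapped. Its mesenchymal values were 153, 109, 92.6 and 92.7 and 146, 167, 158 and 170.3, where irradiated replicate 1 reached into the depleted range. Ndufs7 changed by -0.18 and 0.33 (difference -0.51 ± 0.12, adjusted p = 0.0475). Its epithelial values were 266, 266, 312 and 268 in irradiated and 285, 225, 219 and 255 in depleted libraries. Next came Cox8a (difference -0.55, adjusted p = 0.0803).

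For depletion the difference lay below 0 for most members. 7 of 101 were above 0, where 48.3% of all genes were, with a median of -0.24 beside -0.0096 for all genes. At an unadjusted p under 0.05, 34 members were lower and 1 (mt-Atp6, as listed) higher, against 6.7% and 4.57% of all genes. For irradiation against sham no member was called, where 0.629% of genes were. There, 18 members were higher and 0 lower at an unadjusted p under 0.05, against 6.38% and 6.95% of all genes, and edgeR called 0. 88 of 101 members and 54% of all genes were above 0, with a median of 0.14 beside 0.023 for all genes. Both differences contain the irradiated libraries, so their opposite signs are not independent. The Ndufa12 call was lost in 8 of 32 alternatives and the Ndufs7 call in 23, most of them leaving out 1 library (highest adjusted p 0.0693 and 0.115). For Ndufa12 these were epithelial irradiated replicates 1 and 4, epithelial depleted replicates 1 and 3, mesenchymal irradiated replicates 3 and 4 and mesenchymal depleted replicate 4. Whether an epithelial and a mesenchymal library with the same number came from the same mouse is not stated. Same-numbered libraries of a treatment correlated across compartments at a median of 0.107 (7 of 12 over 0.1), those with different numbers at -0.022 (1 of 36). The fit does not take up such a pairing, so the p-values of Ndufa12 and Ndufs7 rest on independence. A block for the replicate number, shared by all treatments, changed the calls, as given below.

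**Figure D4:**
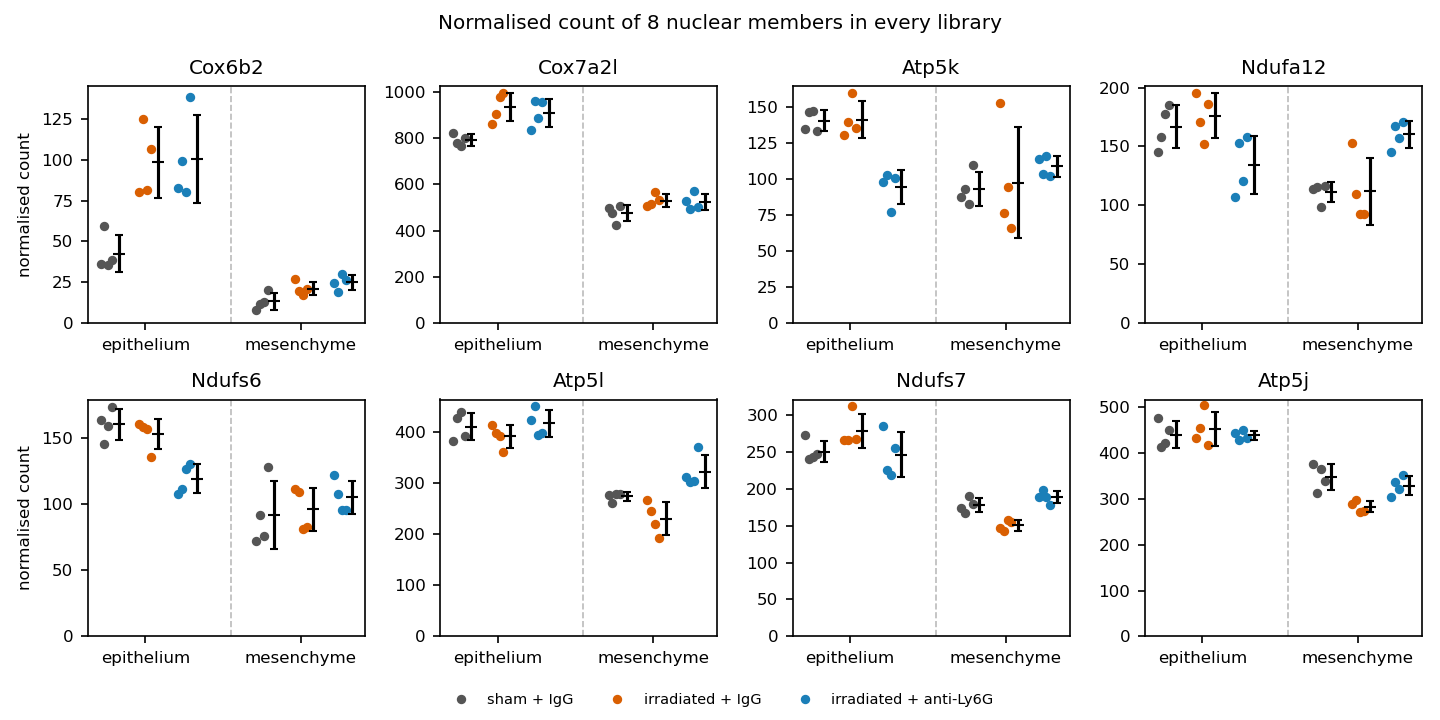
Normalised counts of 8 nuclear members in every library (points) with group mean and SD (bars), epithelium left and mesenchyme right of the dashed line, on separate scales of normalisation. Cox6b2 is higher in all irradiated and depleted than in all sham epithelial libraries, Atp5k is lower in depleted epithelium, Ndufs6 is lower in depleted than in sham epithelium, and Atp5l is highest in depleted mesenchyme.

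Several subunits exist as a common and a tissue-restricted form, and their balance per kilobase within a library needs no common scale between the tables. Over all 12 libraries of a compartment, Cox4i2, the subunit IV form known from lung and from oxygen-sensing cells, made up 1.93% (0.969% to 3.63%) of Cox4i1 plus Cox4i2 in the epithelium and 18.1% (12.2% to 23.7%) in the mesenchyme. Ndufa4l2, a hypoxia-induced relative of Ndufa4 known from pericytes, made up 0.313% (0% to 0.728%) and 16.6% (11.1% to 20.3%) of its pair. For both genes the ranges of the compartments did not overlap, though Ndufa4l2 was too low in the epithelium to be tested. Cox8b, a heart and muscle form, made up 0.495% (0% to 1.20%) and 12.2% (8.17% to 15.4%) of Cox8a plus Cox8b. Cox6a2, another heart and muscle form, ran the other way, with 15.4% (9.83% to 20.8%) in the epithelium and 1.27% (0.352% to 2.26%) in the mesenchyme. Cox7a1, the muscle partner of Cox7a2, overlapped at 4.23% (1.65% to 8.74%) and 6.23% (2.72% to 9.17%).

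Summed heart and muscle markers in the epithelial fraction were 11546 to 12139 in sham libraries, 10709 to 11606 after irradiation and 9019 to 10682 with depletion. Almost all of the sum came from Myh7, the slow myosin heavy chain (58.3%), Ttn (30.9%) and Myh6 (7.95%). The other markers of the list gave little, and Sln was at 0. In the mesenchyme the sum was 1874 to 3148 in sham libraries, 2649.6 to 4009.5 after irradiation and 1828 to 2651 with depletion. Their part in the Cox6a2 share was not tested. Cox6a2 also overlaps Itgad on the other strand. Within the epithelium the Cox6a2 share was 14.8%, 20.8%, 17.4% and 20.8% in sham, 15.9%, 11.6%, 17.2% and 15.1% in irradiated and 12.2%, 12.6%, 9.83% and 16.9% in depleted libraries, which overlapped, and the gene's own change was -0.24 (adjusted p = 0.597) for irradiated against sham. Of these tissue-restricted forms, Cox6b2 was called in a comparison with sham and the 5 others were not. Cox4i2 in the mesenchyme read 167, 147, 122 and 109 in the sham libraries, 131, 125, 184 and 151 in the irradiated libraries and 165, 179, 90.8 and 115 in the depleted libraries (0.12, adjusted p = 0.794 for irradiated against sham), and Ndufa4l2 109.5, 96.8, 92.9 and 68.2 in the sham libraries, 87.7, 89.9, 99.7 and 62.2 in the irradiated libraries and 85.1, 104, 65.7 and 71.6 in the depleted libraries (-0.11, adjusted p = 0.778). In both, the groups overlapped. The mesenchymal Cox8b share was 12.9%, 15.2%, 13.2% and 14.8% in sham, 12.4%, 9.15%, 13.1% and 15.4% in irradiated and 12.3%, 8.27%, 11.01% and 8.17% in depleted libraries. All depleted libraries lay below all sham ones, and the irradiated libraries overlapped both. The gene itself was at -0.27 (adjusted p = 0.495) for depleted against sham.

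**Figure D5:**
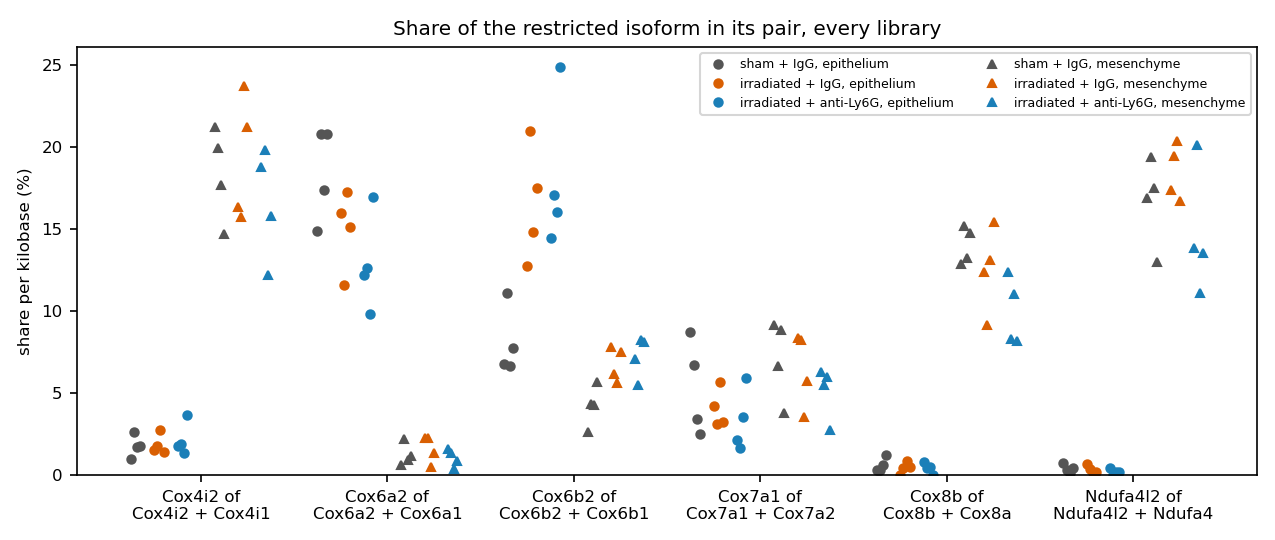
Share (%) of the tissue-restricted form in its pair, per kilobase of transcript, for every library, circles for epithelium and triangles for mesenchyme, coloured by treatment. Cox4i2, Cox8b and Ndufa4l2 are higher in every mesenchymal than in every epithelial library, and Cox6a2 is lower.

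Nuclear genes of oxidative phosphorylation are textbook targets of NRF1, of the ETS family member NRF2 (GABPA) and of YY1, and the promoters of the members were searched for their motifs. RefSeq promoter windows on GRCm38.p6, 250 bases before to 50 after the start, were found for 74 of 93 protein-coding nuclear members. On either strand, the NRF1 letters GCGCA and GCGC, with any 1 base between them, stood in 19 of 74 (25.7%), against 7.17%. The ETS letters CCGGAAG stood in 18 of 74 (24.3%), against 12.9%, and the YY1 letters AAGATGGCG in 8 of 74 (10.8%), against 2.14%. At least 1 of the 3 stood in 38 members (51.4%, against 20.0%). The second share is over 17492 protein-coding genes, with windows of the same length, and a gene with several windows was counted once. Base composition was not matched, and a match is a description, not a bound site. The 120 bases before the RefSeq start are shown for the genes of the largest epithelial changes. The Atp5k stretch is at chr5:108434400-108434519 (-), with an NRF1 match in capitals. The Atp5k window also holds an ETS match outside the stretch shown, and its RefSeq start lies inside the GENCODE gene. The Cox6b2 stretch is at chr7:4753095-4753214 (-), and its window holds none of the 3.
Atp5k: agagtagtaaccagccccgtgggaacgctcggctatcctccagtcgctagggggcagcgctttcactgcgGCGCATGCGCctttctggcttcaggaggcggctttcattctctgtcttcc
Cox6b2: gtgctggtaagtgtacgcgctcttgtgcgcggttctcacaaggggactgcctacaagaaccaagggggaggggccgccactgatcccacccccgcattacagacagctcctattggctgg

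Genes of neighbouring pathways were counted for irradiation against sham too. In the epithelium, where 2.26% of all tested genes were called higher and 0.878% lower, of 16 regulators of mitochondrial gene expression, the nuclear receptor Esrra rose (0.44) and Gabpb2, a partner of GABPA, fell (-0.19). Of 25 genes of the tricarboxylic acid cycle 1 fell (Suclg1, -0.29), and of 18 mitochondrial transcription and replication genes, 21 RNA processing genes and 78 mitochondrial ribosomal protein genes none was called, with 0, 2 and 4 at an unadjusted p under 0.05. Of 84 cytosolic ribosomal protein genes 7 rose (median 0.18). In the mesenchyme the shares of all genes were 2.64% and 1.15%. Fastkd2, which handles mitochondrial RNA, fell (-0.70), 1 of 21 RNA processing genes, and Dld fell (-0.29), 1 of 25 of the cycle. Ucp2 rose (0.49), 1 of 9 antioxidant and uncoupling genes, and Hk2 (0.84) and Gpi1 (0.27) rose among 21 of glycolysis. Mitochondrial ribosomal protein genes lay mostly below 0, with 60 of 78 below 0 (median -0.11) and none called.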

How the data were processed

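The authors' deposited normalised counts were read as a signal: reads divided by 1 scaling factor per library, in 1 table per compartment. Per the submitters' processing notes, cutadapt 1.5, STAR 2.2.2a, SAMtools 1.8, RSEM 1.3.0 and DESeq2 were used with GRCm38. The annotation release is not given in the sources used here, and symbols came from GENCODE M21. Whole reads were recovered from 100% of values within 0.001. Genes with a value of at least 10 in at least 4 of 12 libraries were fitted with limma 3.58.1 in R 4.3.3 (trend, robust) on log2(value + 1), with Benjamini-Hochberg adjustment over all tested genes (16626 epithelial, 16624 mesenchymal and 15092 in both), after tests on simulated data. Alternatives used edgeR 4.0.16 and DESeq2 1.42.0 on the recovered reads, other scalings, filters and pseudocounts, library weights, covariates and left-out libraries. Shared 50-base words between transcripts were counted, and levels per kilobase used transcript length. A count of 3 reads corresponds to a normalised value of 2.36 to 3.81 in the epithelium and 2.48 to 3.66 in the mesenchyme. Named genes were the members called, or the 10 lowest p, in the irradiation and depletion comparisons, the 13 mitochondrial genes and the isoform pairs. The members called for depleted against sham, and a few others, were named after their values were seen. Members and lists were chosen with earlier results of these data known. Values of 1 member called in the mesenchyme are not reported here. Summing copies and removing the trend on length and GC were added after the data were seen.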

Additional observations from a re-analysis of the deposited data

Results flagged for a closer look

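In 144 groups of 4 libraries examined, 9 held a library far from the others, the gap to its nearest neighbour taking more of the group's range than Dixon's 95% critical value. Chance alone gives such a gap in about 1 of 20 groups. In sham mesenchyme these were the low values of Atp5l (261, replicate 2) and Ndufa12 (98.9, replicate 3). In depleted mesenchyme they were the high value of Atp5l (371, replicate 4) and the low value of Cox7b (244.5, replicate 3). In the epithelium they were Cox6b2 at 59.4 in sham replicate 2, Ndufs6 at 136 in irradiated replicate 4, mt-Nd6 at 4747 in irradiated replicate 1 and Uqcrfs1 at 359 in depleted replicate 4. The nuclear minus mitochondrial mean log2 level, copies summed, was -4.02 in depleted mesenchyme replicate 1. The depletion responses of Ndufa12 (difference of log2 changes -0.94) and Ndufs7 (-0.51) differed between epithelium and mesenchyme by the test of the difference itself.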

How the results depend on the processing

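Of all values recomputed, 1680 kept their direction and side of the threshold or stayed within their spread, 245 lost a call, 44 gained one, 96 moved and 2 reversed. Both reversals were mt-Atp6 in the epithelium with copies summed, at -0.17 for depleted against irradiated and -0.32 for depleted against sham. In the epithelium, the 2 members called for irradiated against sham became 1 without a filter, with scaling to total reads, with the 2 groups alone or with the replicate block, 5 with library weights and 0 with the leukocyte covariate. The 2 for depleted against irradiated became 1 with the 2 groups alone or with copies summed, 4 with DESeq2 and 0 with the length and GC trend removed. The 11 for depleted against sham became 0 with the leukocyte covariate. In the mesenchyme, the 2 for irradiated against sham became 0 without a filter, with scaling to total reads, with scaling to reads without mitochondrial genes, with the 2 groups alone or with the length and GC trend removed, 1 with the leukocyte covariate, 4 with library weights or the replicate block and 7 with DESeq2. The 2 for depleted against irradiated became 1 with the 2 groups alone, the covariate or the trend removed, 4 with a mean of at least 50 or DESeq2 and 6 with library weights. The 12 for depleted against sham became 3 without a filter or with the trend removed and 20 with library weights. Of the differences between compartments, that for irradiation went from 0 to 1 with the replicate block, and that for depletion from 2 to 1 with the block or edgeR and to 0 with the trend removed. The causes were not tested. The shares of all tested genes called under the alternatives, or with a library left out, are not given here. A lost or gained count is therefore not a result about the members alone.

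Leaving out 1 library gave 1 to 4, 1 to 3 and 7 to 12 calls in the epithelial comparisons, 0 to 5, 0 to 4 and 2 to 20 in the mesenchymal ones, and 0 to 1 and 0 to 5 for the irradiation and depletion differences. The change in nuclear minus mitochondrial level, as listed, ran over -0.21 to 0.15, -0.079 to 0.30 and -0.084 to 0.26 in the epithelium and 0.046 to 0.47, -0.42 to -0.095 and -0.17 to 0.26 in the mesenchyme. Within a compartment, same-numbered libraries of different groups correlated at -0.11 to 0.15 in the epithelium (median 0.038, 1 of 12 over 0.1). In the mesenchyme they correlated at -0.052 to 0.17 (median 0.038, 3 of 12 over 0.1). Libraries with different numbers had medians of -0.0037 in the epithelium (3 of 36 over 0.1) and -0.0078 in the mesenchyme (2 of 36). These values do not settle whether the numbers pair the libraries, and the replicate block is given here only. Across compartments, same-numbered libraries correlated at -0.037 to 0.255 (median 0.107, 7 of 12 over 0.1), and libraries with different numbers had a median of -0.022, with 1 of 36 over 0.1. Depth limits members with few reads, such as Cox6b2 in the mesenchyme.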
